A study of Mus musculus with 72 samples.

Results

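The H3K27me3 peaks described here were those that activated mouse CD8+ T cells carried in every medium tested: a peak of the vehicle list was kept when it overlapped, by at least 1 base, a peak in each of the CB-839, DON and glutamine-free lists. Of 13556 vehicle peaks, 2265 (16.71%) met this rule. They covered 21.91 Mb, or 33.72% of the 64.98 Mb under all vehicle peaks. Membership was chosen from the peak calls themselves, so overlap, width and signal are given below as descriptions without a test.

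The cells came from spleens of OT-I mice, a strain whose CD8+ T cells carry 1 transgenic receptor specific for an ovalbumin peptide, SIINFEKL. Cultures of splenocytes were stimulated with 10 ng/mL of it in the presence of 100 IU/mL of IL-2. Cultures received CB-839 at 1 µM (a glutaminase inhibitor), DON at 1 µM (a glutamine analog that blocks glutamine-using enzymes), RPMI medium without glutamine, or complete medium with vehicle. The protocols name DMSO as the solvent control of CB-839 and PBS as that of DON, while the labels give a single vehicle group. H3K27me3 and H3K27ac were mapped at 48 h by CUT&RUN in 2 samples per condition, and RNA-seq was done in unstimulated cells and in each condition at 4 h, 24 h and 48 h with 4 libraries per group.

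H3K27me3 is trimethylation of lysine 27 of histone H3. It is deposited by Polycomb repressive complex 2 and read by the CBX subunits of Polycomb repressive complex 1, and it marks genes held silent in a lineage. In most mouse tissues its broadest domains lie over the Hox clusters and over other developmental transcription factors, whose promoters are often rich in CpG. In CD8+ T cells the mark is also known on genes of other lineages and on part of the naive and effector programmes. H3K27ac sits on the same lysine, so a single histone tail cannot carry both marks, and it is found at active promoters and enhancers.

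The 4 promoters shown first lay wholly inside shared peaks and stand for the kinds of gene described below: a Hox gene, 2 receptor genes that rose with DON and a matrix gene that fell without glutamine. Each runs 5′ to 3′ from 250 bases before to 50 bases after the RefSeq start (GRCm38.p6), with CpG in capitals. Hoxd13 is at chr2:74667975-74668274 on the plus strand, Unc5b at chr10:60831532-60831831 on the minus strand, Kit at chr5:75574737-75575036 on the plus strand and Emilin2 at chr17:71311507-71311806 on the minus strand.
Hoxd13: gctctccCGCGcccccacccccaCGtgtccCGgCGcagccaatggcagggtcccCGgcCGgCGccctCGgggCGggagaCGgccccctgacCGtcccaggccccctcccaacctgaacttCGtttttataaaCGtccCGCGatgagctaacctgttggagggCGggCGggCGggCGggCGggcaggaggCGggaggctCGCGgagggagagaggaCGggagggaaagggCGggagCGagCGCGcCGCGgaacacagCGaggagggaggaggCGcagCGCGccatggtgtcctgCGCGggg
Unc5b: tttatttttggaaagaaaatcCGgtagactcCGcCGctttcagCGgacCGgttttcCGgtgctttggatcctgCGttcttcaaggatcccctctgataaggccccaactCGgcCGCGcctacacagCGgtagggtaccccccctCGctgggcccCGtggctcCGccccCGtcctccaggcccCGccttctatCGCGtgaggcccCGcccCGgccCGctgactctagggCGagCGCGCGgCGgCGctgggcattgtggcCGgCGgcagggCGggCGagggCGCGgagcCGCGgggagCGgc
Kit: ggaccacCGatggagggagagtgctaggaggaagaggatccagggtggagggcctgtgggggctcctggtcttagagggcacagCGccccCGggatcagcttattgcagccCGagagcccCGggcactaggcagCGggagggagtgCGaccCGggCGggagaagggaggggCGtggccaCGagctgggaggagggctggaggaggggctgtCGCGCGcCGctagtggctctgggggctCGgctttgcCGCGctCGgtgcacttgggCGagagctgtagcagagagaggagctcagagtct
Emilin2: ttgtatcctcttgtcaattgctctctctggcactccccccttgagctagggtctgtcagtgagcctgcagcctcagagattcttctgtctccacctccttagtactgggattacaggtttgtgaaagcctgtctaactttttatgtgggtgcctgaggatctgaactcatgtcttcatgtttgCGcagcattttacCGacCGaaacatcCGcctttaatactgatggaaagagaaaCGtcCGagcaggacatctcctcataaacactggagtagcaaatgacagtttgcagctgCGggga
The Hoxd13 window held 37 CpG, that of Unc5b 36, that of Kit 20 and that of Emilin2 7.

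CpG-rich starts were common under the shared peaks. Among 32851 RefSeq promoter windows, 1545 windows of 1266 genes lay wholly inside a shared peak, with a median of 16 CpG per 300 bases and a GC content of 60.7%. Windows inside vehicle peaks that were missing only from the DON list had a median of 14 CpG (1050 windows), and those inside peaks found only with vehicle had 6 (224 windows), against 7 over all windows. A window with at least 50% GC and an observed to expected CpG ratio of at least 0.6 was counted as CpG-rich. By that measure 49.7% of windows in shared peaks were CpG-rich, against 45% in peaks missing only with DON, 25% in vehicle-only peaks and 33.5% overall.

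The shared peaks also held microRNA genes, including every RefSeq locus of 2 families. Of 1005 hairpins, 30 (2.99%) lay in a shared peak and 31 (3.08%) in another vehicle peak. Their mature forms are shown with the seed, bases 2 to 8, in capitals, because loci on different chromosomes give the same or a near-identical product.
miR-9-5p: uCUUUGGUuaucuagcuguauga
miR-196a-5p: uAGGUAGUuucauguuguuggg
miR-196b-5p: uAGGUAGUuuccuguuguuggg
miR-10b-5p: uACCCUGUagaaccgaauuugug
All 3 miR-9 loci were covered: Mir9-1 in chr3:88189203-88242551, Mir9-2 in chr13:83712774-83742454 and Mir9-3 in chr7:79493869-79522700. The 3 miR-196 loci, which share the seed AGGUAGU, lay in the shared peaks over the HoxA, HoxB and HoxC clusters, and Mir10b lay in one over HoxD at chr2:74721719-74739865. The Mir183, Mir96 and Mir182 cluster lay together in chr6:30165778-30187426, and the Mir34b and Mir34c pair in chr9:51093793-51109173. RNA of mature microRNAs was not measured.

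Shared peaks were wide. Their median width was 7999 bases (quartiles 5204 and 12049, range 422 to 169703), against 3236 bases for the 11291 other vehicle peaks. Peaks over 10 kb made up 35.45% of the shared set and 3.038% of the others, and 70.07% of all 1146 vehicle peaks of that width were shared. The share of vehicle peaks that were shared was 1.988% in the narrowest quintile and 4.765%, 7.894%, 17.89% and 51.01% in the following ones. A wide peak offers more bases for an overlap of 1 base, so the rule favours wide peaks, and its part in this order was not tested. The signal column, in which the authors' merged value is the sum of the 2 replicate values, had a median of 10.96 in shared and 8.156 in other vehicle peaks. At like width the order was mixed: the medians were 8.581 in shared and 9.476 in other peaks of the third quintile, 9.333 and 10.22 in the fourth, and 12.35 and 12 in the widest.

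**Figure D1:**
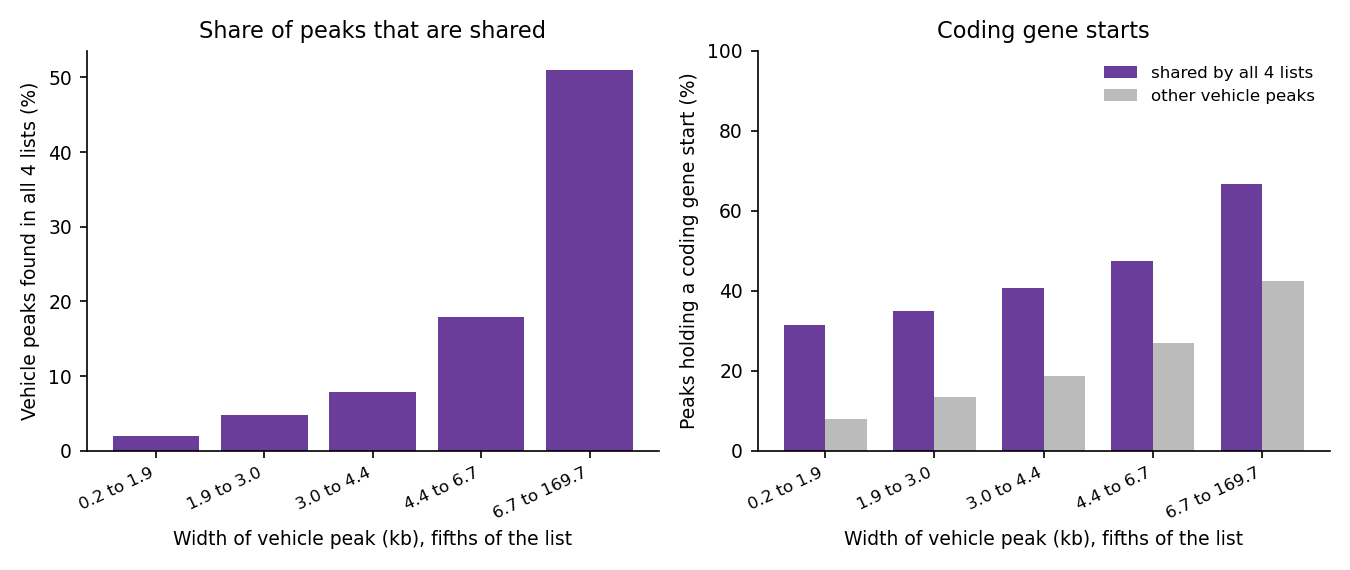
Left, percentage of vehicle H3K27me3 peaks found in all 4 lists, by quintile of peak width in kb; right, percentage of peaks that hold the start of a coding gene, for shared peaks (purple) and other vehicle peaks (grey) of the same quintile. Sharing went from 1.988% of the narrowest to 51.01% of the widest quintile, and shared peaks held coding starts more often in each quintile.

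Coding gene starts lay within 57.48% of shared peaks, counting a window of 1000 bases either side of the start, against 19.38% of the other vehicle peaks. Within the widest quintile the shares were 66.74% and 42.39%, and within the narrowest 31.48% and 8.039%. Per Mb of covered sequence, shared peaks held 65.49 coding starts, peaks missing only with DON 65.62 and vehicle-only peaks 32.47. Of the shared peaks 1126 (49.71%) were within 50 kb of another, and the median gap between neighbours was 227.6 kb. By chromosome, the shared portion of vehicle peaks was highest on chromosome 4 (21.52%) and lowest on chromosome X (7.042%).

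The 3 treated lists differed in length, and so did how much of a shared peak they covered. The CB-839 list held 12417 peaks, the DON list 3533, the glutamine-free list 8795 and the vehicle list 13556. Peaks that met a shared peak made up 18.61% of the CB-839 list, 66.29% of the DON list and 27.64% of the glutamine-free list. The median shared peak was covered over 95.78% of its bases by CB-839 peaks, 73.67% by DON peaks and 91.05% by glutamine-free peaks. Summed over the shared peaks, 89.74% of bases were covered with CB-839, 65.54% with DON and 83.29% without glutamine. At least 50% of the vehicle peak was covered in 2176 of 2265 cases with CB-839, in 1667 with DON and in 2063 without glutamine. The read depth of the CUT&RUN libraries is unknown here, and a list made from deeper or cleaner libraries can be longer, so list lengths are not amounts of the mark.

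**Figure D2:**
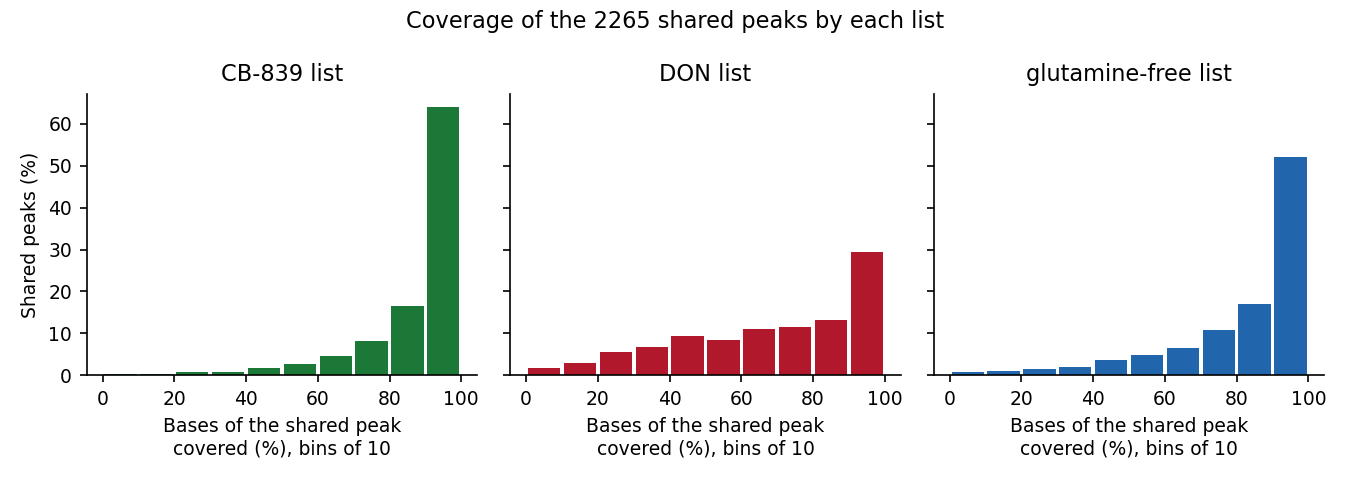
Percentage of the 2265 shared peaks (y axis) by the percentage of their bases that each list covers (x axis, bins of 10), for the CB-839, DON and glutamine-free lists. Bins of 90 to 100% coverage held 64.0% of shared peaks with CB-839, 29.4% with DON and 52% without glutamine.

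The 2 widest shared peaks lay over Hox clusters. The HoxC peak, chr15:102903009-103072711 (mm10), spanned 169703 bases with the starts of 9 Hoxc genes from Hoxc4 to Hoxc13, and had the highest vehicle signal, 55.27. It was met by 1 CB-839 peak that covered 99.28% of it, by 14 DON peaks that covered 61.32% and by 7 glutamine-free peaks that covered 95.94%. The HoxA peak, chr6:52206932-52276326, spanned 69395 bases with the starts of Hoxa3, Hoxa6, Hoxa7, Hoxa9, Hoxa10, Hoxa11 and Hoxa13 and was covered over 98.17% with CB-839, 43.84% with DON and 97.09% without glutamine. The HoxB peak, chr11:96249374-96294675 (45302 bases), held Hoxb6 to Hoxb9 and was covered over 100.0%, 72.81% and 100.0% in the same order. Other peaks among the 8 widest lay over Zic5 and Zic2 (57404 bases), Cd207 and Vax2 (53562 bases), the Mir9-1 region (53349 bases), the body of Epn2 (46374 bases) and the body of Tcf7l2 (43097 bases).

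Of the 8 peaks with the highest vehicle signal, 3 were not among the 8 widest. They lay in the body of Prdm1 (signal 36.54), over Nkd2, an inhibitor of Wnt signalling (36.50), and over Klf14, a zinc finger factor (34.72). The Prdm1 body peak, chr10:44465435-44482455, was covered over 93.65% with CB-839, 16.60% with DON and 44.53% without glutamine. At the edge of the rule, 1.149% of a peak in Alox15 was covered by the glutamine-free list, 1.357% of a peak in Gramd1b by the DON list and 2.809% of chr6:84597351-84598881 by the glutamine-free list. Just outside it, the nearest DON peaks began 0 bases from a peak in Map6 and 1 base from a peak in Ano7, and a glutamine-free peak lay 11 bases from chr16:58401130-58402585.

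A run of 7 shared peaks between chr8:123537170 and chr8:123629592 covered annotated 5S ribosomal RNA genes, a tandem array. These peaks held 4, 6, 6, 3, 17, 3 and 11 rRNA gene starts in order along the chromosome. Reads from near-identical repeats cannot be placed uniquely, so the edges and signal of these peaks are uncertain.

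H3K27ac was rare under the shared peaks. A vehicle H3K27ac peak overlapped 10 of the 2265 shared peaks (0.4415%) and 0.4694% of the other vehicle H3K27me3 peaks. Those 10 lay at Shmt2 and Nxph4, Notch4, Pcx, Psd and Fbxl15, Skap2, Zfp580, Nova2, Rgs9bp, Erich1 and Dlgap2, and Nrgn. The glutamine-free H3K27ac list overlapped 2 shared peaks, those at Shmt2 and Cbx8, and the CB-839 and DON lists none, but these 2 lists held only 117 and 33 H3K27ac peaks in all. Among coding genes whose start window met a shared peak, 1.218% had vehicle H3K27ac in that window. The share was 3.226% for coding genes with another vehicle H3K27me3 peak and 28.22% for all coding genes.

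Most genes on the lists of developmental transcription factors had a shared peak at the start. The start window of 2207 annotated genes met a shared peak, of which 1396 were coding (6.662% of 20956 coding genes), and for 1943 genes the start itself lay inside. Of 39 Hox genes, 34 had a shared peak. Of 65 other homeobox and paired factors, such as Pax6, Lhx2 and Otx1, 55 had a shared peak. So did 49 of 64 further developmental factors, such as Twist1 and Olig3, and 29 of 59 secreted developmental signals, such as Wnt3 and Wnt10a.

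Lists of T cell and other blood cell genes held few members, and most are too short to be set apart from the 6.662% of all coding genes. None of 24 naive and memory genes, 12 CD8 T cell markers, 10 NK markers and 11 erythroid markers had a shared peak. Nor did any of 9 genes for H3K27 demethylases, histone acetyltransferases and histone deacetylases. Of 24 effector genes only Prdm1 (encoding Blimp-1, a driver of terminal effector differentiation) did, and of 13 inhibitory receptor and Tox genes Nt5e (CD73) and Tox2 (15.4%). Helper lineage genes contributed Gata3 and Il10 of 19 (10.5%), and cell cycle inhibitors Cdkn2a and Cdkn2b of 8. Of 34 Polycomb genes Cbx8 and Pcgf1, subunits of Polycomb repressive complex 1, were members. Among markers of other blood cells, Pax5 of 16 B cell genes and Cd14, Cebpa and Fcgr3 of 16 myeloid genes had a shared peak.

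**Figure D3:**
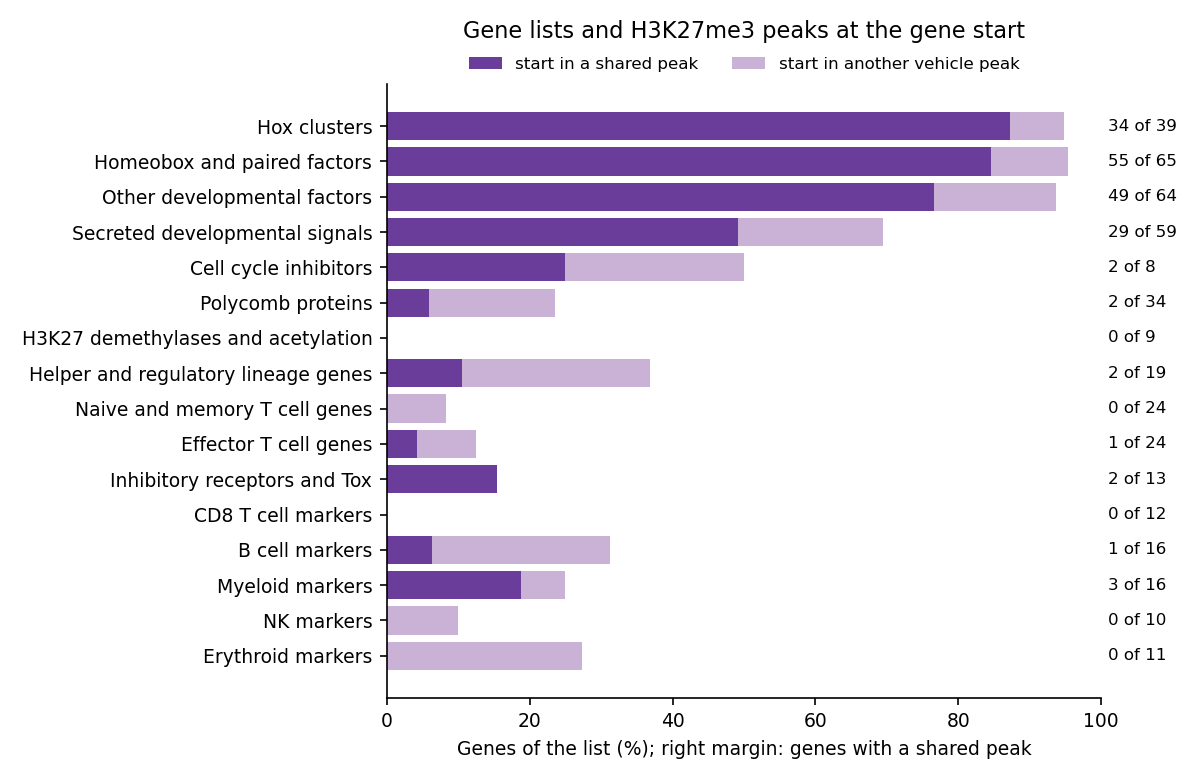
Percentage of each gene list (x axis) whose start window of 1000 bases either side met a shared H3K27me3 peak (dark) or another vehicle peak (light); counts with a shared peak stand at the right. Hox clusters had 34 of 39 genes in shared peaks and CD8 T cell markers 0 of 12.

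RNA of these genes was low in each group. In vehicle cells at 48 h, the median coding gene with a shared peak had 0.0119 RPKM (reads scaled to exon length and library size), against 0.0252 for genes with another vehicle peak, 0.114 for those with a vehicle-only peak and 0.207 over all coding genes. In the shared set 78.2% of coding genes were under 0.1 RPKM and 99 (7.09%) reached 1 RPKM. The median of the shared set was 0.0112 with CB-839, 0.0194 with DON, 0.0118 without glutamine and 0.0465 in unstimulated cells. Together the 1396 coding genes took 0.520 ± 0.00835% of counts with CB-839, 0.496 ± 0.00468% with DON, 0.578 ± 0.00472% without glutamine, 0.474 ± 0.0130% with vehicle and 0.745 ± 0.0439% in unstimulated cells (SD, n = 4 libraries each). Where only the window and not the start was in the peak, levels were higher: 24.2% of 161 such coding genes reached 1 RPKM with vehicle, against 4.86% of the 1235 with the start inside.

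The most abundant genes of the set were mainly of that kind. Shmt2, the mitochondrial enzyme of serine and glycine exchange, had 274 ± 34.8 RPKM in vehicle cells (SD, n = 4), and its start lay 75 bases inside the edge of a peak that carried H3K27ac as well. Rbm28, Aatf, Bub3, Efhd2 and Dnph1, with 38.9 to 54.7 RPKM, had their starts outside the peak edge. Mt1, a metallothionein with its start inside, had 38.1 ± 14.6 RPKM. Ppp1ccb had 132 ± 13.2 RPKM, but it is a near-copy of Ppp1cc, so its reads are uncertain.

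Each RNA comparison was fitted by edgeR's quasi-likelihood test over all genes with Benjamini-Hochberg adjustment at 0.05, and RNA did not enter the choice of peaks. Of the 2207 genes, 560 passed the low-count filter at 48 h and 759 against unstimulated cells. A gene could pass through 1 group alone, and tested genes of the set were lower than most. Their median log2 CPM (counts scaled to library size) was -0.241 at 48 h, against 3.85 over all genes tested. In the activation fit the medians were -0.585 and 3.1. The counts below are set beside those over all genes tested, which does not remove this effect of the filter. For DON and activation, members with at least 1 CPM in both groups are also counted.

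DON was followed by more genes going up than down in the shared set. With DON, 249 of the 560 genes rose (44.5%) and 124 fell (22.1%) against vehicle at 48 h, and 66.6% changed in either direction. Over all 16173 genes 35.6% rose and 35.6% fell (71.2% changed in either direction). The median log2 fold change was 0.37 in the set and 0.00 over all genes. Among the 212 set members with at least 1 CPM in both groups, 81 rose (38.2%) and 68 fell (32.1%). Over all such genes 31.8% rose and 42.4% fell, and the median was 0.07 in these members and -0.09 over all. Genes with another vehicle peak had a median of 0.22, with 494 of 1158 up and 317 down. Where DON peaks covered at least 50% of the shared peak, 180 of 423 genes rose (42.6%), and where they covered less, 69 of 137 rose (50.4%). Where the vehicle peak was missing only from the DON list, 210 of 474 genes rose (44.3%) and 117 fell, with a median of 0.33. These differences were not tested.

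The largest rises with DON among the named genes were those of Unc5b, Elfn2 and Ccr9. Unc5b, a netrin receptor (ENSMUSG00000020099.8, chr10:60762593-60831581, minus strand), had 13.5, 15, 13.7 and 11.8 CPM (counts scaled to library size with TMM) with DON, against 0.512, 0.331, 0.264 and 0.271 CPM with vehicle. Its log2 fold change was 5.26 ± 0.19 SE (adjusted p = 2.72e-14, edgeR). Its promoter, shown above, lies in a peak of 15540 bases that DON peaks still covered over 93.2%. Kit, the stem cell factor receptor (ENSMUSG00000005672.12, chr5:75574916-75656722, plus strand), had 9.12, 9.28, 10.8 and 7.10 CPM with DON, against 0.341, 0.586, 0.462 and 1.15 CPM with vehicle (log2 fold change 3.87 ± 0.25 SE, adjusted p = 9.22e-11, edgeR). DON peaks covered 30.5% of the Kit peak. Ccr9, a gut-homing chemokine receptor, had 5.13, 4.91, 3.95 and 3.46 CPM with DON, against 0.0975, 0.255, 0.132 and 0.121 CPM with vehicle. Its log2 fold change was 4.82 ± 0.30 SE (adjusted p = 6.91e-11, edgeR). A gene this low with vehicle passed the low-count filter through another group, which can fix the direction of its change. Also, 21.5% of the exon bases of Ccr9 overlap other genes and reads were counted without strand, so the source of some reads is uncertain.

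Elfn2, a leucine-rich repeat membrane protein, rose with DON by 5.05 on the log2 scale, Sptb (erythroid beta-spectrin) by 3.46 and Zfyve28 by 3.37. Of the 29 secreted signals with a shared peak 7 passed the low-count filter, of which 6 rose with DON, and members low in vehicle cells passed through another group, which can fix that direction. Wnt10a had 11.4, 11.2, 9.05 and 9.73 CPM with DON, against 2.68, 1.73, 2.57 and 2.29 CPM with vehicle, and Wnt3 rose by 3.24. Twist1, a mesodermal factor, had 1.88, 1.81, 1.69 and 2.19 CPM with DON, against 0.268, 0.127, 0.264 and 0.362 CPM with vehicle. Nt5e rose by 2.66, Tox2 by 2.04, Pcgf1 by 1.88, Otx1 by 1.65, Fcgr3 by 1.67 and Gata3 by 1.01 (adjusted p from 9.15e-12 to 0.00732, edgeR). Cdkn2a, a cell cycle inhibitor gene, had 0.405, 0.508, 0.409 and 0.294 CPM with DON, against 0.146, 0.102, 0.363 and 0.0302 CPM with vehicle, and the groups overlapped (adjusted p = 0.0158, edgeR). Without vehicle library D this call was lost (adjusted p = 0.0556, edgeR). Twist1 and Cdkn2a, this low with vehicle, passed the low-count filter through another group, which can fix the direction of their change. The Hox gene tested, Hoxb9, did not pass with DON.

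Genes that fell with DON included Hbegf and Prdm1. Hbegf, an EGF-family growth factor, had 0.174, 0.314, 0.136 and 0.294 CPM with DON, against 5.63, 6.09, 5.48 and 5.61 CPM with vehicle, a log2 fold change of -4.57 ± 0.20 (SE; adjusted p = 3.62e-13, edgeR). Prdm1 (ENSMUSG00000038151.13, chr10:44437177-44528501, minus strand) had 0.0869, 0.145, 0.409 and 0.158 CPM with DON, against 4.65, 5.73, 3.33 and 4.10 CPM with vehicle, a log2 fold change of -4.46 ± 0.29 (SE; adjusted p = 1.14e-10, edgeR). Every DON library was under 0.5 CPM for both genes. Prdm1 has shared peaks at its start and in its body, covered over 45.3% and 16.60% with DON. Atf3, a stress-response factor, fell by 3.21, Cth by 2.25, and Insrr, an insulin receptor relative, by 2.25. H2-Q10 fell by 2.68, but it belongs to the near-identical MHC class I family and its reads are uncertain.

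Markers of other cell types moved as well with DON. Summed B cell markers were 19.1 to 20.3 CPM with DON, against 7.80 to 8.96 CPM with vehicle. Summed erythroid markers were 7.38 to 9.65 CPM with DON, against 3.08 to 4.65 CPM with vehicle. Myeloid sums overlapped, at 29.6 to 33.6 CPM with DON, against 18.3 to 34.6 CPM with vehicle. Markers near 0 with vehicle could pass the low-count filter only through another group, which can fix their direction, so no counts of rises are given. The NK sum was lower, at 141 to 152 CPM with DON, against 234 to 288 CPM with vehicle. The NK list shares Eomes with the naive and memory T cell list, so this sum cannot be read as NK cells alone. In vehicle cells Cr2, Fcrla and Ms4a1 were at 0 counts in all 4 libraries, while with DON every B cell marker had a count. The part of such cells in the rise of low genes was not tested, and in bulk RNA a change in cell number cannot be told apart from a change in RNA per cell.

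Without glutamine, rises and falls in the shared set were nearly balanced. Of the 560 genes 149 rose and 140 fell, while 28% rose and 26.3% fell over all genes (54.3% changed in either direction), and the median log2 fold change was 0.07 in the set and 0.02 overall. Cth, the last enzyme of the transsulfuration route to cysteine (ENSMUSG00000028179.12, chr3:157894248-157925077, minus strand), had 231, 243, 245 and 228 CPM without glutamine, against 18.4, 23.5, 20.8 and 23.4 CPM with vehicle. Its log2 fold change was 3.47 ± 0.14 (SE; adjusted p = 2.95e-12, edgeR), while with DON it was -2.25 ± 0.16. Only the window of Cth, not its start, met the peak, which all 3 treated lists covered over 100.0%. Anxa3, an annexin, had 13.6, 13.9, 14.3 and 10.9 CPM without glutamine, against 1.12, 1.12, 1.49 and 0.814 CPM with vehicle. Casz1, a zinc finger factor, rose by 2.77, Sptb by 2.68, Tmem136 by 2.40 and Sbf2 by 2.29.

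Hoxb9, the only Hox gene of the set that passed the low-count filter at 48 h, rose without glutamine. Hoxb9 (ENSMUSG00000020875.9, chr11:96271457-96276595, plus strand) had 0.679, 0.649, 0.664 and 0.781 CPM in glutamine-free medium, against 0.0487, 0, 0.0330 and 0.0603 CPM with vehicle. All 4 glutamine-free libraries lay above all vehicle libraries, with a log2 fold change of 4.21 ± 0.43 (SE; adjusted p = 1.65e-07, edgeR). A gene this low with vehicle passed the low-count filter through another group, which can fix the direction of its change. Mean Hoxb9 levels were 4.02 CPM without glutamine and 0.120 CPM with vehicle at 4 h, and 4.88 and 0.247 CPM at 24 h. Its peak was covered over 100.0% by the glutamine-free list at 48 h. Lhx2 rose by 2.03 without glutamine, Wnt2b by 1.85, Ntn1 by 1.48, Pcgf1 by 0.70, Pou4f1 by 0.65, Gata3 by 0.48 and Sfrp2 by 0.45, while Wnt10a fell by 1.2, Otx1 by 1.15 and Cdkn2a by 2.86. The Sfrp2 call had an adjusted p of 0.0323 (edgeR) and was lost in 7 of the alternative settings, up to an adjusted p of 0.174. The Ntn1 call was lost without glutamine-free library D and without vehicle library A (adjusted p up to 0.0709, edgeR).

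Among the named genes Tubb6 had the largest fall without glutamine. Tubb6, a beta-tubulin, had 2.57, 2.79, 3.14 and 1.72 CPM without glutamine, against 30.8, 28, 53.6 and 38.9 CPM with vehicle (log2 fold change -3.88 ± 0.20 SE, adjusted p = 4.33e-11, edgeR). Emilin2, a matrix glycoprotein whose promoter is shown above, had 0.764, 0.379, 0.808 and 0.201 CPM without glutamine, against 5.12, 4.41, 5.55 and 4.49 CPM with vehicle. Prdm1 fell by 3.47, Gas2l1 by 3.07 and Nrgn, neurogranin, by 3.03, and H2-Q10 by 3.59 with the uncertainty named above. Nrgn lies in a shared peak with vehicle H3K27ac, and with DON its log2 fold change was 1.03 ± 0.14 (SE; adjusted p = 1.87e-06, edgeR). The DON and glutamine-free comparisons share the 4 vehicle libraries.

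CB-839 changed the fewest genes of the set. Of 560 genes 60 rose and 24 fell, while 8.50% rose and 6.73% fell over all genes (15.2% changed in either direction). The median log2 fold change was 0.08 in the set and -0.01 over all genes. Without CB-839 library A only 37 genes of the set rose. Sulf2, an extracellular heparan sulfatase, had 0.586, 1.12, 0.795 and 0.799 CPM with CB-839, against 2.51, 2.73, 3.07 and 3.35 CPM with vehicle, with a log2 fold change of -1.82 ± 0.17 (SE; adjusted p = 1.56e-06, edgeR). Sdc3, a syndecan that carries heparan sulfate, had 13.8, 10.4, 11.9 and 7.85 CPM with CB-839, against 3.92, 3.29, 4.62 and 4.40 CPM with vehicle, with a log2 fold change of 1.45 ± 0.16 (SE; adjusted p = 1.2e-05, edgeR). Neither pair of groups overlapped, which the choice of named genes required.

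Unc5b rose with CB-839 too, by 1.38, to 0.831, 0.988, 0.795 and 1.12 CPM. Nuak2, a kinase of the AMPK family, rose by 1.25, Prr36 by 1.13, Rundc3a by 0.96 and Ntng2 by 0.93. Exons of Prr36 and Ntng2 overlap other genes in part, so some of their reads are uncertain. Lhx2 rose by 1.33, Bmp7 by 0.72 and Cbx8 by 0.39. With the fit of 8 libraries and the replicate block these calls were lost (adjusted p = 0.057 for Lhx2, up to 0.112 for Bmp7 and 0.0925 for Cbx8, edgeR), as were those of Ntng2, Robo3, Wnt10a and Zbtb46 (adjusted p from 0.0524 to 0.129, edgeR). Ckmt1, a mitochondrial creatine kinase, fell by 1.51, Robo3, an axon guidance receptor, by 1.41, Dcxr by 1.06, Map3k20 by 1.06, Zbtb46, a dendritic cell factor, by 1.01 and Wnt10a by 0.93 (adjusted p from 5.32e-05 to 0.0201 for these falls, edgeR). Myeloid marker sums were 27.7 to 41.3 CPM with CB-839, 52.4 to 70.3 CPM without glutamine and 18.3 to 34.6 CPM with vehicle, and their part in these changes was not tested.

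**Figure D4:**
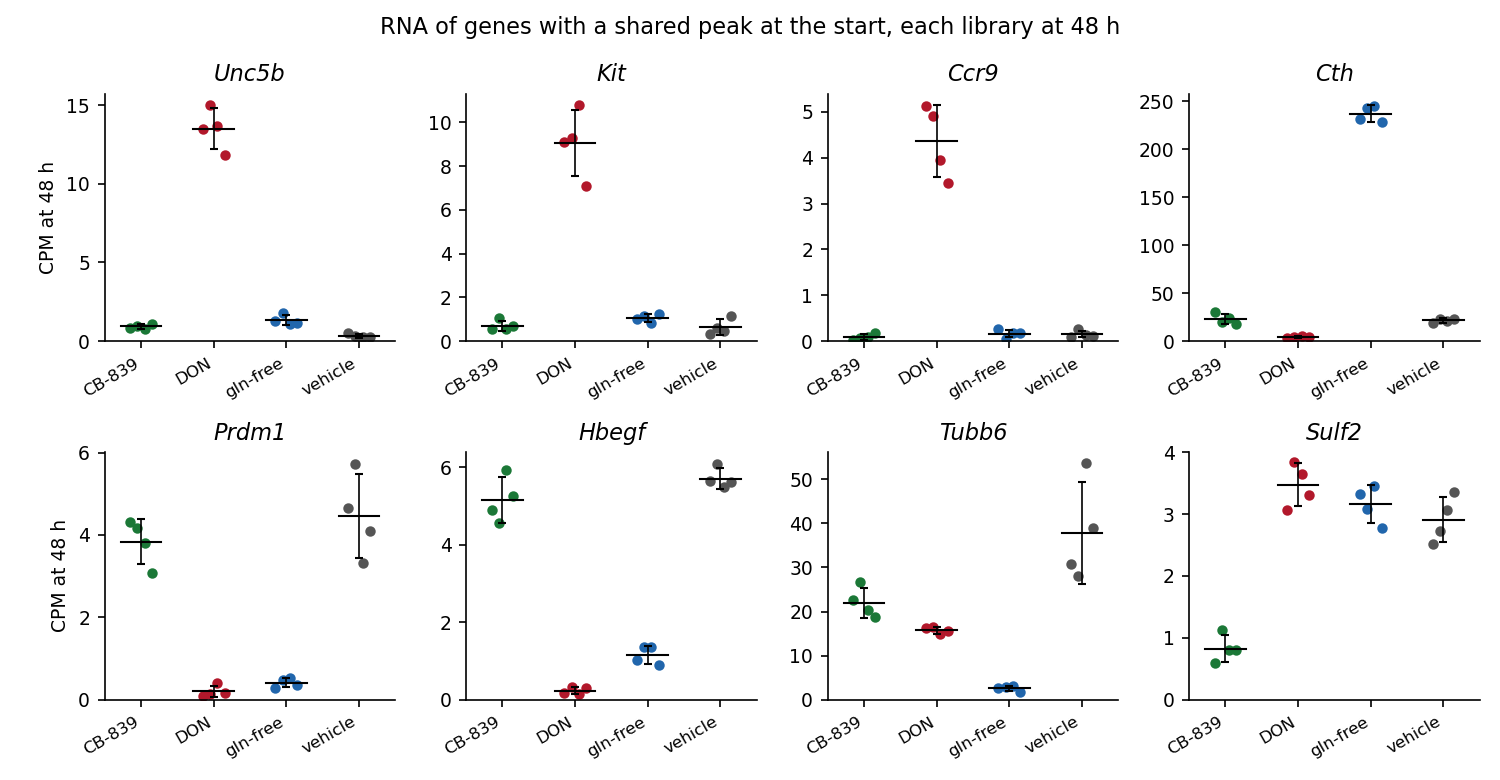
CPM (y axis) at 48 h of 8 genes with a shared peak at the start, with a point for each of 4 libraries per condition, the mean as a bar and the SD as the error line. Unc5b, Kit and Ccr9 were high with DON only, Cth was high without glutamine, Prdm1 and Hbegf were low with DON and without glutamine, Tubb6 was lowest without glutamine and Sulf2 lowest with CB-839.

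Time courses of the same genes differed in shape. Unc5b averaged 0.522 CPM at 4 h, 0.422 at 24 h and 13.5 at 48 h with DON, against 0.415, 0.214 and 0.345 CPM with vehicle. Over the same times Kit averaged 12.8, 12 and 9.07 CPM with DON, against 16.3, 1.59 and 0.634 CPM with vehicle. So the DON value of Unc5b was high only at 48 h, while that of Kit stayed near its unstimulated mean of 10.9 CPM. Hbegf averaged 0.990, 0.459 and 0.230 CPM with DON, against 1.04, 3.65 and 5.70 CPM with vehicle. Values at 4 h and 24 h were not tested here, since the peaks were mapped at 48 h.

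**Figure D5:**
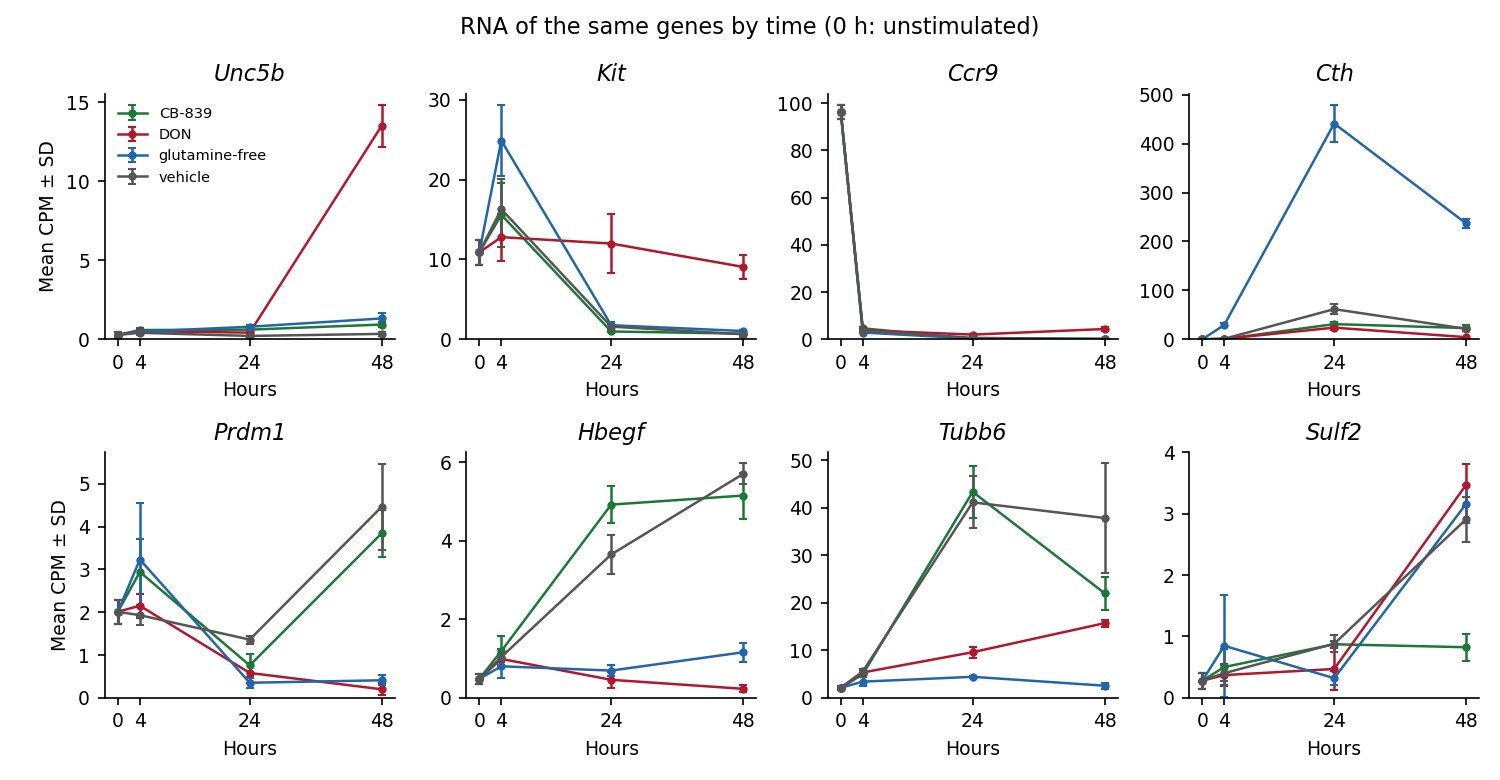
Mean CPM ± SD (y axis, 4 libraries per point) of the same 8 genes at 0 h (unstimulated), 4 h, 24 h and 48 h (x axis) for CB-839, DON, glutamine-free medium and vehicle; all lines start from the same unstimulated libraries. Unc5b with DON was at 13.5 CPM at 48 h and 0.422 CPM at 24 h, and Cth without glutamine was highest at 24 h.

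Most tested genes of the set were lower in vehicle cells at 48 h than in unstimulated cells. Of 759 genes, 175 rose (23.1%) and 438 fell (57.7%), and 80.8% changed in either direction. Over 18317 genes 38.3% rose and 45.1% fell (83.4% changed in either direction). The median log2 fold change was -1.26 in the set and -0.16 over all genes. Among 174 members with at least 1 CPM in both groups, 56 rose (32.2%) and 69 fell (39.7%). Over all such genes 50.2% rose and 34.4% fell, and the median was -0.13 in these members and 0.25 over all. Genes with another vehicle peak had a median of -1.

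Ccr9 had the largest fall, with 0.0975, 0.255, 0.132 and 0.121 CPM in vehicle cells at 48 h, against 99.5, 96.8, 95.9 and 92.5 CPM in unstimulated cells (log2 fold change -9.41 ± 0.18 SE, adjusted p = 2.51e-18, edgeR). The log2 fold change was -6.92 for Mn1, -6.31 for Bcl11a, a zinc finger factor, -5.97 for Rgmb, a BMP co-receptor, -5.95 for Prss12 and -5.62 for Trnp1. Gata3 fell by 2.66, Nt5e by 2.49 and Tox2 by 1.48. Of the 34 Hox members 7 passed the low-count filter. Hoxa7 averaged 0.0497 CPM in vehicle cells and 1.13 CPM in unstimulated cells, and Hoxb1 averaged 0.0188 and 0.901 CPM in the same order. Genes this low in vehicle cells at 48 h passed the filter through another group, which can fix the direction of their change, so no count over the list is given. Exons of Hoxa7 overlap other genes over 20.4% of their bases. Hoxa9, for example, had 0.0487, 0.0510, 0.0330 and 0 CPM in vehicle cells, against 0.385, 0.395, 0.575 and 0.807 CPM in unstimulated cells. Wnt10a, a secreted signal, rose by 4.38, but it was at most 0.179 CPM in unstimulated cells and passed the filter through another group.

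Genes that rose on activation included metabolic and signalling genes. Cth had 18.4, 23.5, 20.8 and 23.4 CPM in vehicle cells at 48 h, against 0.0525, 0.0592, 0.0460 and 0.0672 CPM in unstimulated cells, with a log2 fold change of 8.37 ± 0.23 (SE; adjusted p = 9.95e-17, edgeR). Otx1 had 0.390, 0.688, 0.858 and 0.664 CPM in vehicle cells and no count in the 4 unstimulated libraries. That is at least 42.4-fold higher when the whole unstimulated group is given 3 counts. Genes this low in unstimulated cells, such as Cth and Otx1, passed the low-count filter through another group, which can fix the direction of their change. Nkain1 rose by 7.40, Ptpn5, a tyrosine phosphatase, by 6.32 and Mlf1 by 5.63. Prdm1 rose by 1.00.

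Unstimulated libraries held more RNA of other cell types. Erythroid markers summed to 3.08 to 4.65 CPM in vehicle cells at 48 h, against 73.1 to 158 CPM in unstimulated cells. Myeloid markers summed to 18.3 to 34.6 CPM, against 43.9 to 196 CPM. B cell markers summed to 7.80 to 8.96 CPM, against 30.3 to 36.1 CPM. Markers near 0 in vehicle cells passed the low-count filter through another group, which can fix the direction of their change. Counts of markers that fell are therefore not given. Adgre1, Cd33, S100a8 and S100a9 had no count in vehicle cells, and no B cell, myeloid, NK or erythroid marker was at 0 in unstimulated cells. Pax5, Cebpa, Cd14 and Fcgr3, which have shared peaks, are themselves such markers, and their log2 fold changes were -3.83, -4.40, -2.64 and -3.2. Without unstimulated library C the Cd14 call was lost (adjusted p = 0.167, edgeR). The part of other cells in the falls of the set was not tested.

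RNA libraries held between 25.6 M and 51 M assigned counts. CD8 T cell markers summed to 4820 to 5010 CPM with CB-839, 4280 to 4450 CPM with DON, 4140 to 4180 CPM without glutamine, 4480 to 5150 CPM with vehicle and 5600 to 6920 CPM in unstimulated cells, and none of the 12 was at 0 in any of these groups. Separate mice or cultures are not stated for the 4 libraries within a group, so the p-values measure only the spread between these libraries.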

How the data were processed

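H3K27me3 and H3K27ac peaks were used as deposited: per the submitters' processing notes the tools were FastQC, Bowtie2, STAR, MACS2, featureCounts 2.0.1 and deepTools, with the build mm10. The authors' lists hold peaks kept by irreproducible discovery rate (IDR) from 2 replicates at a global IDR of 0.05. They give a merged signal value, replicate signal values, a deposited score, and the IDR as −log10, per the file columns. RNA was deposited by the authors as raw counts per gene from paired reads over exons of GENCODE M25. The header's command sets no strand, although the kit was stranded by protocol.

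Vehicle peaks were intersected with each list at 1 base, and gene starts with a window of 1000 bases. Members and gene lists were chosen with earlier results of these data known. Genes were filtered with filterByExpr, TMM-scaled and tested in edgeR 4.0.16 (glmQLFit, limma 3.58.1, R 4.3.3), with 1 fit of 16 libraries at 48 h (16173 genes) and 1 of 16 libraries for activation (18317 genes), at an adjusted p of 0.05. The script was tested on simulated data. Named genes were, per comparison, the 6 largest rises and 6 largest falls among called members whose average log2 CPM was 0 or above, with groups that did not overlap and a symbol other than a predicted gene, clone, receptor segment or microRNA. Up to 4 called members of each gene list and the 8 highest RPKM values were added. The genes of the time courses were picked from these after their values were seen. RPKM used exon lengths from the count table. Promoter and microRNA sequences are RefSeq, GRCm38.p6. Alternatives were DESeq2 1.42.0, RLE scaling, no low-count filter, 8 libraries, a replicate block, leave-one-out, stricter IDR, other overlaps and windows. IgG controls were not analysed here.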

Additional observations from a re-analysis of the deposited data

Results flagged for a closer look

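Among 177 groups of 4 libraries tested for a library far from the others by Dixon's ratio at the 95% level, 11 were flagged, and chance flags about 1 in 20 groups. In vehicle cells at 48 h, library C stood above the others for Nkain1 (16.6 CPM, others 11.4 to 12.2), Nrgn (8.68 CPM, others 6.04 to 6.17) and Pcgf1 (11 CPM, others 7.72 to 8.14). With DON at 48 h, library B had 2.32 CPM of Otx1 (others 1.85 to 1.91). Among unstimulated libraries, C had 7.03 CPM of Bcl11a (others 3.81 to 4.18) and 1.59 CPM of Prdm1 (others 2.11 to 2.19), B had 4.05 CPM of Prss12 (others 5.56 to 5.76), and D had 0.179 CPM of Wnt10a (others 0.069 to 0.0789). A single count set the flag for Lhx9 in vehicle library D at 48 h (0.0302 CPM), Olig3 in vehicle library B at 48 h (0.0255 CPM) and Npw in unstimulated library A (0.035 CPM), with the other libraries of those groups at 0.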

How the results depend on the processing

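Of 1414 alternative values for 102 gene results, 1394 kept direction and side of the threshold, 20 lost the call and none reversed. Of 150 alternative values for counts, 134 stayed within 1.5 times. With peaks held to an IDR of 0.01, 531 peaks were shared and 755 genes had them, and the calls were 12 up and 4 down with CB-839, 49 up and 32 down with DON, 37 up and 33 down without glutamine, and 45 up and 115 down on activation. With 8 libraries in the fit, CB-839 gave 29 up and 13 down, and with the replicate block as well 14 and 6. Over all genes CB-839 had 2464 calls, 1054 with 8 libraries and 331 with the block as well. Without a low-count filter 768 genes fell on activation. Leaving out each library gave 37 to 79 up and 16 to 27 down with CB-839, 243 to 272 and 112 to 127 with DON, 132 to 155 and 132 to 143 without glutamine, and 163 to 192 and 423 to 513 on activation. The labels do not explain the library letters, and correlations of same-lettered deviations ran from -0.36 to 0.369. Correlations between different letters were not computed, so whether the letters pair the samples is unknown. The replicate block alone gave 58 up and 25 down with CB-839, 249 and 120 with DON, 147 and 136 without glutamine, and 175 and 438 on activation. DESeq2 gave 68 and 26 with CB-839. At an overlap of 50% of the vehicle peak in each list, 1535 peaks were shared. The CB-839 calls of Bmp7 and Zbtb46 were lost with 8 libraries (adjusted p up to 0.112 and 0.129), and those of Cbx8, Lhx2, Ntng2, Robo3 and Wnt10a with 8 libraries and the block. The causes were not tested. CUT&RUN depth is unknown, and 2 samples per condition were merged before sharing was defined.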
